A study of Mus musculus with 16 samples.

Results

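Autophagy is the route by which a cell wraps part of its own cytoplasm in a double membrane, the autophagosome, and delivers it to the lysosome. The genes described here are 39 genes of the autophagy machinery, chosen by name, and all 39 were found by their symbol among the 17951 genes that the authors deposited. They were followed through 3 groups of microglia, the resident macrophages of the brain, and the question was whether their RNA levels differed between phagocytic and non-phagocytic microglia of Alzheimer's model mice and between those cells and wild-type (WT) microglia. The mice were of the 5xFAD line, in which transgenic (TG) animals carry transgenes under a neuronal promoter and deposit amyloid-β (Aβ). All animals, WT included, were injected with Methoxy-X04 (Me-X04), a fluorescent dye that binds Aβ aggregates, and Cd11b+ Cd45+ cells were sorted from the brain. There were 7 WT libraries, 5 libraries of TG Me-X04- (non-phagocytic) microglia and 4 libraries of TG Me-X04+ (phagocytic) microglia, that is, cells that had taken up dyed Aβ. By the numbers in their labels, TG libraries of equal number were taken to come from 1 animal, so that 4 animals gave a library of each kind. The study's figure legends count 6 TG animals, more than these numbers give. By the labels the WT mice were 2 months old and the TG mice 6 months old, so age and genotype cannot be told apart in a comparison with WT. The study's methods state other ages, which lie close together, so the size of the age difference is uncertain.

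Autophagosomes form in steps, and the genes are grouped by the step they serve. The ULK kinase complex starts the process, ATG9 vesicles and ATG2 lipid transfer proteins feed membrane, and the class III PI3 kinase complexes mark that membrane with a phosphoinositide. A ubiquitin-like conjugation system then attaches the small ATG8 proteins (the LC3 and GABARAP families) to membrane lipid, ATG4 proteases prime and release them, and cargo receptors bind ATG8 proteins on one side and cargo on the other. In phagocytes a part of the same machinery also attaches LC3 to the membrane of phagosomes. Autophagy is controlled to a large extent at the protein level, and RNA levels do not measure how fast it runs.

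Depth on the listed genes was 15623664 to 22119327 reads for WT, 17216633 to 25184600 for TG Me-X04- and 22430251 to 27579017 for TG Me-X04+. The share of these reads on mitochondrial genes was 12.6 to 31.3% for WT, 20.6 to 44.8% for TG Me-X04- and 31.3 to 56.8% for TG Me-X04+, and the share on the 39 autophagy genes was 0.156 to 0.194%, 0.140 to 0.207% and 0.0972 to 0.146%. Apart from the groups, the libraries were divided into 2 sets by a principal component analysis with the group means removed. The sign on the first component, which held 37.8% of the variance, gave the set, so whether the libraries form separate clusters was not tested. Set A held WT replicates 1 to 3 and both TG replicates 1 and 2 (7 libraries), and set B the other 9. The labels name no batch for these sets. The study's methods name a pair of sequencing instruments, with some samples sequenced later on the other one, but not which libraries, so whether the sets follow the instrument was not tested. All 12 microglial markers listed were in the table, with a summed level of 5285 to 7761 RPKM in WT, 4674 to 8670 in TG Me-X04- and 5890 to 8740 in TG Me-X04+ libraries. Of 6 markers of border macrophages and monocytes 5 were in the table, with sums of 4.23 to 7.73, 3.37 to 8.78 and 1.95 to 19.5 RPKM. Of 5 endothelial markers 2 were in the table, with sums of 2.27 to 12.5 RPKM in WT, 1.19 to 1.98 in TG Me-X04- and 1.13 to 7.59 in TG Me-X04+ libraries. Of these, Flt1 had a log2FC of 3.55 between the TG groups (limma adjusted p = 0.00608), and Pecam1 one of -2.47 (0.233). The neuronal sum stayed at or under 1.91 RPKM in every library. Of 5 neutrophil markers 3 were in the table, with sums of 54.5 to 170.3 RPKM over all libraries. That sum was nearly all Csf3r, with group means of 6.38 to 6.82 log2 RPKM. The group means of S100a8 and S100a9 lay between -2.35 and 0.73, and Ly6g and Retnlg were not in the table. The part of mitochondrial reads, of the 2 sets and of other cells in the results that follow was not tested beyond the values given beside them.

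Levels are given as log2 RPKM (reads per kilobase of gene, relative to library size, on a log2 scale), with the SD over libraries. A difference between groups is a log2 fold change (log2FC) from limma with a Benjamini-Hochberg adjusted p over all genes of the table, and a gene is called differentially expressed (DE) where that p is under 0.05 and the log2FC is 0.7 or more in either direction. In RNA from sorted pools of cells, a lower level in each cell and fewer cells with the transcript cannot be told apart.

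Between the phagocytic and non-phagocytic TG groups 1 of the 39 autophagy genes, the ATG8 gene Gabarap, was DE and higher in TG Me-X04+, and none was DE and lower. A log2FC between the TG groups is given throughout as TG Me-X04+ minus TG Me-X04-. Over the whole table, a share of 3.44% of genes was DE and higher and one of 2.06% DE and lower. The median log2FC over the autophagy genes was 0.04, beside -0.09 over all genes. Of the 39 log2FC 22 were above 0, beside 44.4% of those of all genes. At an unadjusted p under 0.05, which 18.7% of all genes reached, limma found 6 of the 39, a share no larger than that of all genes. They were Gabarap and Gabarapl1 with a positive log2FC and Uvrag, Wdfy3, Atg4b and Atg101 with a negative one. The TG Me-X04+ libraries all lay above the TG Me-X04- libraries for 2 genes, Gabarap and Gabarapl1, and all below for none. Over all genes the shares with such separate groups were 4.80% and 3.14%, and 2 of 39 is near the first of these. Within animals, 6 genes were higher in TG Me-X04+ in all 4 pairs (Gabarap, Gabarapl1, Becn1, Pik3r4, Atg10 and Atg5) and 5 were lower in all 4 (Atg101, Atg9a, Atg2a, Atg4b and Wdfy3). For all genes these shares were 15.1% and 13.1%. With the libraries scaled by their reads outside mitochondrial genes, which moved the median of all genes to -0.36, 11 of the 39 log2FC were above 0. Of all genes 29.0% were above 0 with that scaling.

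**Figure D1:**
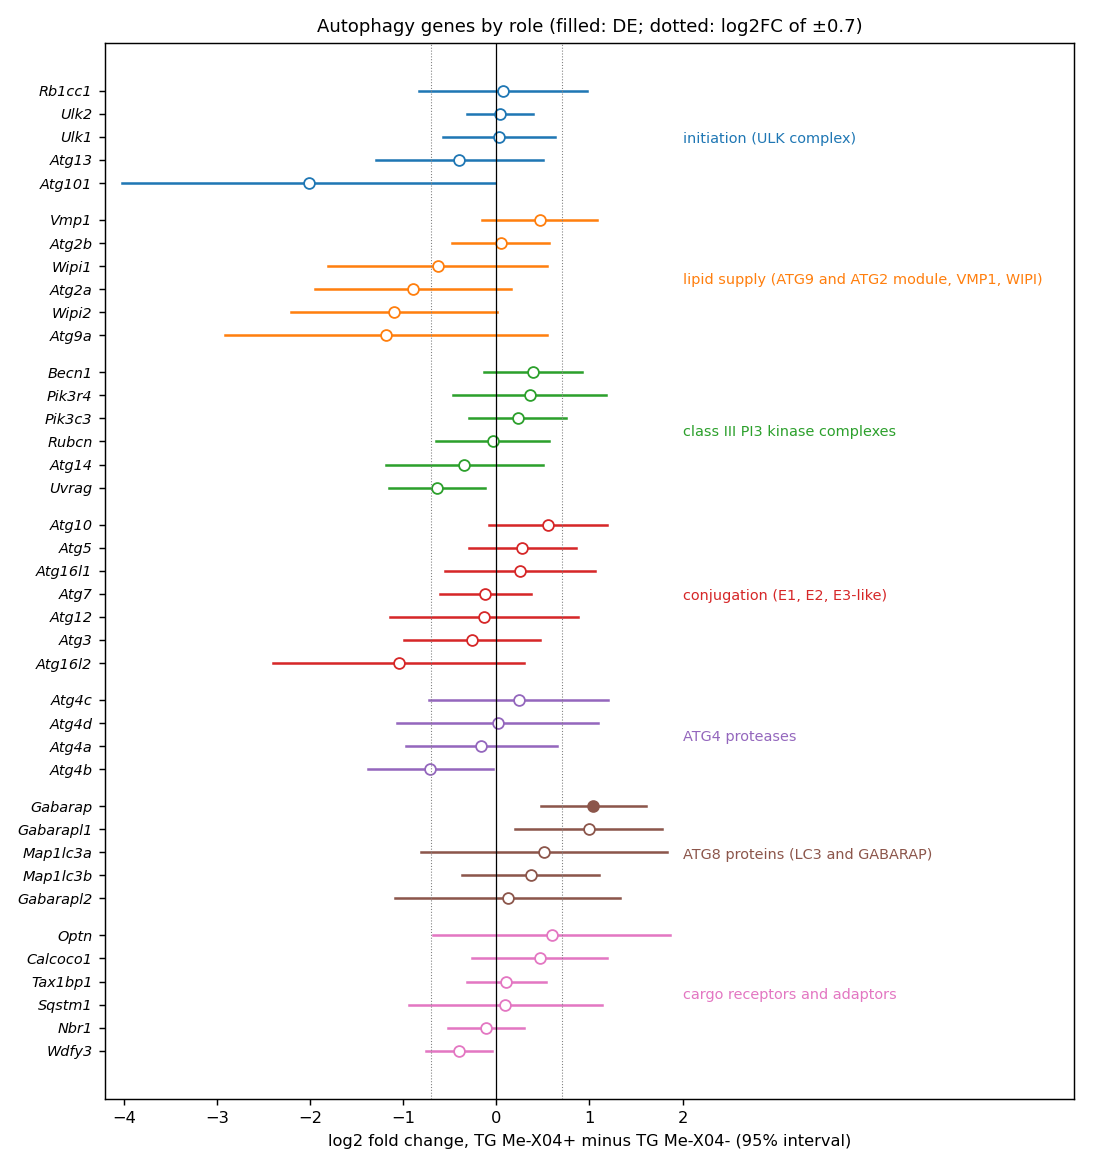
Log2 fold change, TG Me-X04+ minus TG Me-X04- (x axis), for each of the 39 autophagy genes (y axis), ordered by role, with the 95% interval as a line. The filled point is Gabarap, the 1 DE gene, at 1.04, and the dotted lines mark a log2FC of 0.7 in either direction.

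The ATG8 genes encode the small proteins that are coupled to the autophagosome membrane, and the ATG4 proteases cut each of them behind a glycine near its end. The last 42 bases of the 5 coding sequences, stop codon included, are shown because they hold this glycine and what is cut off behind it. Capitals mark the codon of the last glycine, and all 5 genes lie on the plus strand of GRCm38.
Gabarap (chr11:69994483-69994524): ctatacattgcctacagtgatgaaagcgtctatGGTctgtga
Gabarapl1 (chr6:129541126-129541167): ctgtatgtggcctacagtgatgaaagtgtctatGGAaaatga
Gabarapl2 (chr8:111952364-111952405): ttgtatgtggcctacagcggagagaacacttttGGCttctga
Map1lc3a (chr2:155277596-155277637): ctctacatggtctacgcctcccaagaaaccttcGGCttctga
Map1lc3b (chr8:121596729-121596770): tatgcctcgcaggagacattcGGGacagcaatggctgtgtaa
After the glycine codon 1 further codon stands before the stop in 4 of the genes and 5 in Map1lc3b. Gabarap, Gabarapl1 and Gabarapl2 each code for 117 residues, Map1lc3a for 121 and Map1lc3b for 125. Gabarap and Gabarapl1 were identical at 74.9% of aligned coding bases, Gabarap and Gabarapl2 at 63.1%, and Gabarap and Map1lc3b at 51.0%. No 50-base stretch of a Gabarap transcript occurred in a transcript of another gene in the annotation.

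Gabarap (ENSMUSG00000018567, chr11:69991143-69994951 in GRCm38) was the ATG8 gene with the highest level in every group. Its level ranged from 3.66 to 5.09 with a median of 4.45 in the 7 WT libraries. In TG Me-X04- replicates 1 to 5 it was 5.25, 4.47, 4.93, 5.09 and 4.47, and in TG Me-X04+ replicates 1 to 4 it was 5.43, 6.05, 6.17 and 5.89. Each TG Me-X04+ library thus lay above every other library. The means were 4.40 ± 0.46 (SD, n = 7), 4.84 ± 0.36 (n = 5) and 5.88 ± 0.33 (n = 4). Between the phagocytic and non-phagocytic TG groups the log2FC was 1.04 (SE 0.27, 95% interval 0.48 to 1.61, 2.06-fold, limma adjusted p = 0.0298), and the 4 within-animal differences were 0.18, 1.58, 1.24 and 0.80. A shared term for libraries of equal number in all groups gave a log2FC of 1.09 (limma adjusted p = 0.0556). The call was lost with this term. It also ties WT libraries to TG libraries of other animals, so it does not test differences within animals. The call was also lost with the mitochondrial reads left out of the scaling (0.77, limma adjusted p = 0.119). The same held when TG Me-X04- replicate 2 or 5 or TG Me-X04+ replicate 2, 3 or 4 was left out (adjusted p 0.0628, 0.0829, 0.0814, 0.0768 and 0.0512 in limma). Within set A alone the log2FC was 0.88 (limma adjusted p = 0.317), and within set B alone 1.20 (0.00926).

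Against WT, Gabarap was DE in TG Me-X04+ microglia (log2FC 1.49, SE 0.25, 2.80-fold, limma adjusted p = 0.000511). That call was kept with each of the 16 libraries left out in turn and within each set. Between TG Me-X04- and WT the log2FC was 0.45 (95% interval -0.05 to 0.94, limma adjusted p = 0.999).

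Gabarapl1 (ENSMUSG00000030161, chr6:129533160-129542346), the closest paralogue of Gabarap, ranged from 0.94 to 2.63 with a median of 2.35 in the WT libraries. It was 2.74, 2.38, 2.75, 2.56 and 2.69 in TG Me-X04- replicates 1 to 5 and 3.68, 4.35, 3.23 and 3.20 in TG Me-X04+ replicates 1 to 4. All TG Me-X04+ libraries were above all others, with the 2 highest values in set A, while the 3 lowest values of all were the WT libraries of set A. The means were 1.97 ± 0.75 (SD, n = 7), 2.62 ± 0.16 (n = 5) and 3.62 ± 0.54 (n = 4). The log2FC between the TG groups was 0.99 (95% interval 0.20 to 1.78), which did not pass the test (limma adjusted p = 0.146), although all 4 pairs were higher (by 0.94, 1.97, 0.48 and 0.64). Against WT it was DE in TG Me-X04+ microglia (log2FC 1.65, SE 0.35, 3.13-fold, limma adjusted p = 0.00347) but not in TG Me-X04- microglia (0.65, adjusted p = 0.999). The call against WT was lost without both TG Me-X04+ libraries of set A (1.25, limma adjusted p = 0.0777) and within set B, where the log2FC of 0.69 was under the fold threshold. Of the exon bases of Gabarapl1 28.3% overlap 1700101I11Rik on the other strand, and without strand the reads of that stretch cannot be told apart.

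The other 3 ATG8 genes did not pass the test in a comparison. Map1lc3b, which encodes the LC3 form most used as an autophagosome marker, was 1.30, 2.52, 3.34 and 2.98 in TG Me-X04+ replicates 1 to 4 and 1.78 to 2.57 in TG Me-X04- libraries (log2FC 0.37, limma adjusted p = 0.63). With set A alone its log2FC was -0.04, and with set B alone it was 0.86 and DE. Map1lc3a had a log2FC of 0.51 on low and scattered values (11 to 134 reads per library over the TG libraries). Gabarapl2 had a log2FC of 0.12, and 12.2% of the 50-base stretches of its transcripts also occur in transcripts of other genes, pseudogenes among them. All 5 log2FC of the family were above 0 in this comparison, but that of Gabarapl2 was -0.15 when mitochondrial reads were left out of the scaling and -0.17 without both TG Me-X04+ libraries of set A. Within set A 3 of the 5 were below 0, namely Gabarapl2 (-0.51), Map1lc3a (-0.34) and Map1lc3b (-0.04).

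**Figure D2:**
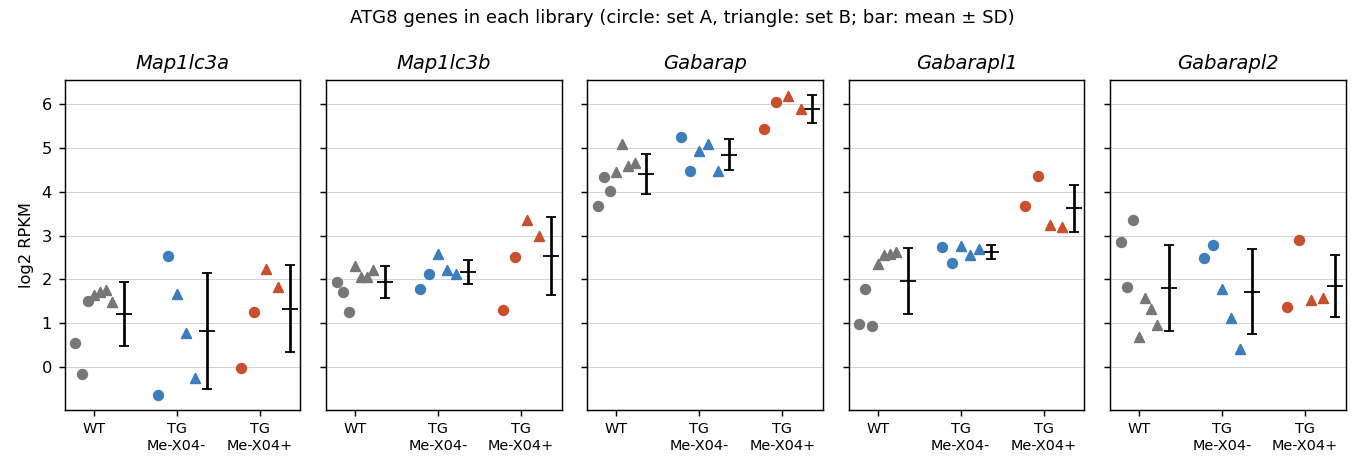
Log2 RPKM (y axis) of the 5 ATG8 genes in each library of the 3 groups (x axis), with the mean and SD as bars beside the points, circles for set A and triangles for set B. For Gabarap and Gabarapl1 the 4 TG Me-X04+ points lie above all other points of the gene, and for Gabarapl2 the sets are spread apart within WT.

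On the linear scale the 5 ATG8 genes summed to 27.2 to 50.3 RPKM in WT libraries, 35.2 to 54.4 in TG Me-X04- and 61.9 to 102.5 in TG Me-X04+ libraries, so the summed level of each TG Me-X04+ library was above all others. Gabarap made up 58.3 ± 7.9% (SD, n = 7) of this sum in WT, 62.8 ± 8.3% (n = 5) in TG Me-X04- and 69.6 ± 3.4% (n = 4) in TG Me-X04+ microglia. The share of Gabarapl1 was 11.4 ± 3.7%, 13.6 ± 2.7% and 15.3 ± 5.8%, and that of Gabarapl2 12.8 ± 11.0%, 8.2 ± 4.9% and 4.5 ± 1.9%. The shares of single libraries overlapped between the groups for all 5 genes.

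**Figure D3:**
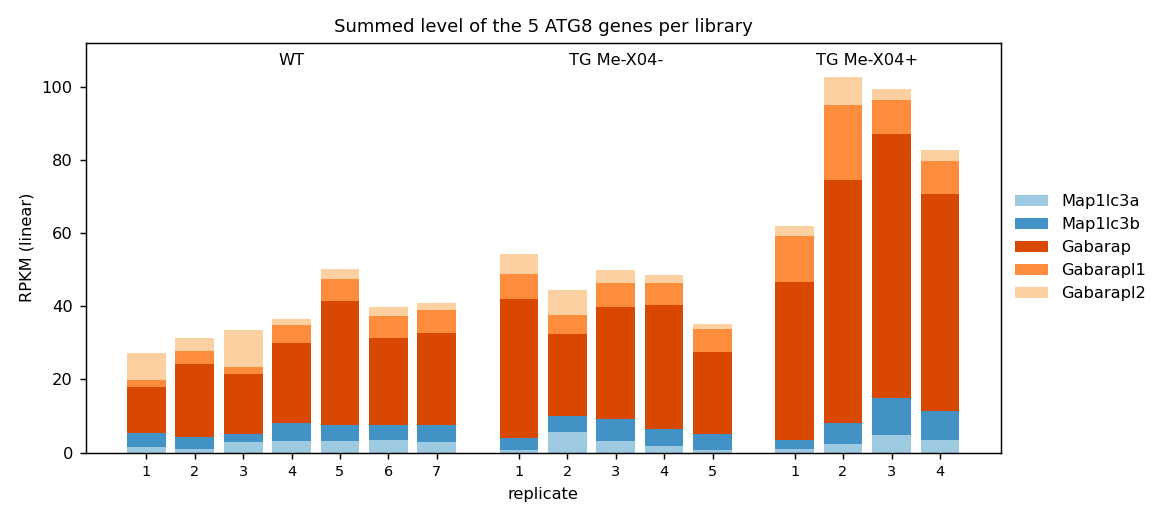
Summed RPKM on a linear scale (y axis) of the 5 ATG8 genes in each library (x axis, by group and replicate), stacked by gene. The TG Me-X04+ bars reach 61.9 to 102.5 RPKM against at most 54.4 in the other groups, with Gabarap as the largest part of each bar.

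The initiation genes encode the kinases ULK1 and ULK2 and their partners ATG13, ATG101 and RB1CC1. None of the 5 was DE in a comparison. Ulk2 was the highest of all 39 genes in WT (4.74 ± 0.09, SD, n = 7) and lay at 4.77 ± 0.19 (n = 5) in TG Me-X04- and 4.81 ± 0.28 (n = 4) in TG Me-X04+ microglia (log2FC between the TG groups 0.04, 95% interval -0.32 to 0.39). Its paralogue Ulk1 stood at 2.11 ± 0.44, 2.32 ± 0.10 and 2.36 ± 0.50. Atg101, whose product stabilises ATG13, had the largest difference of the group. It was -1.62, 0.59, 2.32, 1.42 and 1.58 in TG Me-X04- replicates 1 to 5 and -2.84, -2.92, 1.34 and -0.20 in TG Me-X04+ replicates 1 to 4, where its reads numbered 1, 1, 69 and 23. In WT it ranged from -2.05 to 1.62 with a median of 1.03. Values from 1 read are set by the small count added before the logarithm, and the groups overlapped. All 4 pairs were lower in TG Me-X04+ microglia, with differences from -3.51 to -0.98, and the log2FC of -2.01 did not pass (limma adjusted p = 0.263). It was -0.29 without both TG Me-X04+ libraries of set A.

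Of the 6 genes for lipid supply none was DE. They include Atg9a, the scramblase of the vesicles that seed the membrane, the lipid transfer proteins Atg2a and Atg2b, the ER protein Vmp1 and the phosphoinositide binders Wipi1 and Wipi2. Their median log2FC between the TG groups was -0.76, with 2 of 6 above 0. Atg9a was 0.70, 0.77, 1.58, 1.03 and 1.13 in TG Me-X04- replicates 1 to 5, -3.39, 0.64, 1.53 and 0.64 in TG Me-X04+ replicates 1 to 4, and -2.07 to 1.27 with a median of 0.68 in WT. A single library, TG Me-X04+ replicate 1 with 6 reads, stood far below the rest. The log2FC was -1.19 (limma adjusted p = 0.485) and became 0.04 without both TG Me-X04+ libraries of set A. Of the exon bases of Atg9a 31.8% are shared with Gm29253 on the same strand, which makes its counts uncertain. Between the paralogues, the log2FC of Atg2a was -0.90 (-0.10 without those libraries) and that of Atg2b 0.05 (-0.20), while Wipi2 had -1.10 (0.03) and Wipi1 -0.63 (0.19).

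The class III PI3 kinase group holds the lipid kinase Pik3c3, its regulatory subunits Pik3r4 and Becn1, the autophagy subunit Atg14, the endosomal subunit Uvrag and its inhibitor Rubcn, which is also needed for LC3 on phagosomes. None was DE. Uvrag had the largest difference. It was 3.54, 3.34, 3.62, 3.67 and 3.98 in TG Me-X04- replicates 1 to 5, 2.76, 2.72, 2.80 and 3.68 in TG Me-X04+ replicates 1 to 4, and 3.31 to 4.09 with a median of 3.64 in WT. In TG Me-X04+ 3 libraries were below all others and replicate 4 lay among them. The log2FC was -0.64 (95% interval -1.15 to -0.13, limma adjusted p = 0.15) against TG Me-X04- and -0.63 (adjusted p = 0.0713) against WT. Without TG Me-X04+ replicate 4 the log2FC against TG Me-X04- was -0.87 and Uvrag was DE (limma adjusted p = 0.0362). Of its exon bases in the later annotation 17.6% overlap Gm45187 on the other strand. That annotation gives Uvrag 9035 exon bases, but its reads were counted on 3438, so the overlap within the counted bases is not known. Becn1 was higher in TG Me-X04+ in all 4 pairs, by 0.01 to 0.70, with a log2FC of 0.39 (limma adjusted p = 0.429). However, 43.9% of its exon bases overlap Cntd1 on the other strand. Atg14 and Rubcn had log2FC of -0.34 and -0.04.

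The conjugation genes comprise the E1 enzyme Atg7, the E2 enzymes Atg3 and Atg10, and the ubiquitin-like Atg12 with its partner Atg5. They also hold Atg16l1, which brings the complex to the membrane, and its paralogue Atg16l2. None of the 7 was DE. The log2FC between the TG groups lay between -0.26 and 0.55 for all but Atg16l2. Atg16l2 was 0.95, -0.60, 1.01, 1.22 and 0.56 in TG Me-X04- replicates 1 to 5, -2.82, 0.79, 0.79 and -0.44 in TG Me-X04+ replicates 1 to 4, and -0.67 to 1.20 with a median of 0.68 in WT. Its lowest value came from 6 reads in TG Me-X04+ replicate 1, its 4 pairs ranged from -3.77 to 1.39, and the log2FC of -1.05 did not pass (limma adjusted p = 0.411). Its paralogue Atg16l1 had a log2FC of 0.26. Atg10 and Atg5 were higher in TG Me-X04+ in all 4 pairs, with log2FC of 0.55 (limma adjusted p = 0.348) and 0.28 (0.643).

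Among the 4 ATG4 proteases none was DE. Atg4b, regarded as the main protease for ATG8 proteins, was 0.54, 0.30, 1.02, 1.08 and 1.01 in TG Me-X04- replicates 1 to 5, -0.62, 0.06, 0.42 and 0.45 in TG Me-X04+ replicates 1 to 4, and 0.42 to 1.11 with a median of 0.85 in WT. The TG Me-X04+ values were the lower ones of each pair but overlapped with the other groups. The log2FC was -0.71 (95% interval -1.38 to -0.04, limma adjusted p = 0.236) against TG Me-X04- and -0.71 (adjusted p = 0.127) against WT. The log2FC of Atg4a, Atg4c and Atg4d between the TG groups were -0.16, 0.24 and 0.02. For Atg4a 51.2% of the 50-base stretches of its transcripts recur in Atg4a-ps, so its counts are uncertain.

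Of the 6 cargo receptors and adaptors none was DE. Sqstm1, the receptor for ubiquitinated cargo, stood at 2.44 ± 1.06 (SD, n = 7) in WT, 2.73 ± 0.36 (n = 5) in TG Me-X04- and 2.83 ± 0.56 (n = 4) in TG Me-X04+ microglia, with a log2FC between the TG groups of 0.10 (95% interval -0.94 to 1.13). Nbr1 and Tax1bp1, which bind ubiquitin as well, had log2FC of -0.11 and 0.11, with 95% intervals of -0.52 to 0.30 and -0.32 to 0.53. Optn had the largest difference of the group. It was 0.55, 0.30, -1.09, -0.63 and -0.84 in TG Me-X04- replicates 1 to 5, 0.42, 1.46, -1.46 and 0.59 in TG Me-X04+ replicates 1 to 4, and -1.98 to 0.01 with a median of -0.81 in WT. These values came from 16 to 153 reads per library and overlapped, and the log2FC of 0.59 (limma adjusted p = 0.659) turned to -0.09 without both TG Me-X04+ libraries of set A. Wdfy3, a large scaffold for protein aggregates, was lower in TG Me-X04+ in all 4 pairs, with differences from -0.68 to -0.15 and a log2FC of -0.40 (95% interval -0.76 to -0.05, limma adjusted p = 0.199). Calcoco1, a receptor for the endoplasmic reticulum, had a log2FC of 0.46.

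**Figure D4:**
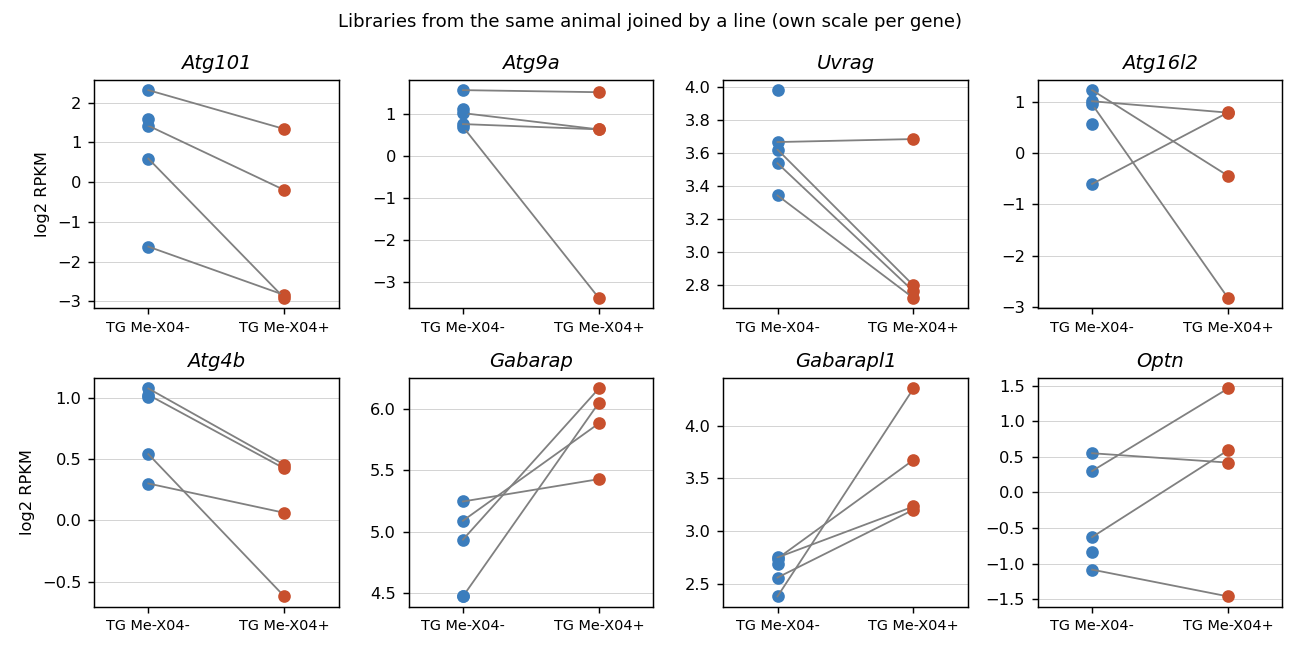
Log2 RPKM (y axis, own scale per gene) of the 8 genes described with all TG values, in the TG Me-X04- (left) and the TG Me-X04+ libraries (right), with lines joining libraries of the same animal. For Gabarap and Gabarapl1 all 4 lines end higher in TG Me-X04+, for Atg101, Atg9a and Atg4b all 4 end lower, and for Atg9a 1 line with a difference of -4.09 stands out from the rest.

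Between TG Me-X04- and WT microglia no autophagy gene was DE and none had an unadjusted p under 0.05 in limma, where 0.201% of all genes were DE and 5.18% had such a p. The median log2FC was 0.06, beside 0.01 over all genes. Atg7 was the 1 of the 39 whose groups did not overlap (0.652% of all genes were higher and 0.407% lower in that way), at 1.45 to 1.68 in the WT libraries against 1.75 to 2.24 in those of TG Me-X04- (log2FC 0.39, 95% interval -0.04 to 0.82, limma adjusted p = 0.999). In TG Me-X04+ libraries it was 1.52, 1.45, 2.22 and 2.16, which spans both other groups.

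Between TG Me-X04+ and WT microglia 2 of the 39 genes were DE and higher, Gabarap and Gabarapl1, and none was DE and lower, where 8.25% of all genes were DE and higher and 6.02% DE and lower. This comparison shares its TG Me-X04+ libraries with the one above. At an unadjusted p under 0.05, which 27.8% of all genes reached, limma found 7 of the 39, again no larger a share, the other 5 being Vmp1 and Atg10 with log2FC of 0.62 and 0.68 and Uvrag, Atg4b and Wdfy3 with -0.63, -0.71 and -0.34. The median log2FC was 0.06, beside -0.11 over all genes.

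In WT microglia the levels of the 39 genes ran from 4.74 ± 0.09 (SD, n = 7) for Ulk2 to -0.90 ± 0.79 for Optn. Gabarap at 4.40 ± 0.46, Wdfy3 at 4.20 ± 0.15, Tax1bp1 at 4.20 ± 0.13 and Atg3 at 3.96 ± 0.46 followed Ulk2, and each of these 5 differed from its neighbour in the order by less than the larger of their SDs. By mean level Gabarap ranked 2 of 39 in WT and 1 in TG Me-X04+ microglia, and Gabarapl1 ranked 20 in WT and 5 in TG Me-X04+ microglia.

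The 2 sets of libraries were drawn from these same values, so differences between them are built in, and their sizes are given as description. With group means removed, 7 of the 39 were higher and 12 lower in set A by at least 0.7, which is 48.7% of them, beside 44.5% of all genes. Higher in set A were Gabarapl2 (by 1.29), Rb1cc1 (1.17), Pik3r4 (1.04), Atg4c (0.98), Optn (0.95), Atg3 (0.74) and Calcoco1 (0.71). The lowest differences, set A minus set B, were those of Atg101 (-1.87), Atg9a (-1.48), Atg12 (-1.11) and Wipi2 (-1.02). Gabarap and Gabarapl1 differed by -0.36 and -0.40. Each group holds libraries of both sets.

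RefSeq promoter sequences of GRCm38.p6, from 250 bases before to 50 after the start, were at hand for 32 of the 39 genes. They made up 39 windows, as some genes have more than 1, and were searched on both strands. A gene was counted if any of its windows held the site, while the shares of all are per promoter, so counts and shares are not on the same scale. The E-box CACGTG was found for 5 of the genes (Atg14, Atg3, Atg5, Atg7 and Rubcn) and in 7.15% of all 32851 promoters. For Atg14, Atg7 and Rubcn the window with the E-box lies inside the gene and not at its annotated start. Its extended form TCACGTGA, the site of lysosomal and autophagy gene promoters that overlaps the E-box, was found for Atg3 and in 0.974% of all promoters. The antioxidant response element TGACNNNGC was found for 5 genes (Atg13, Map1lc3b, Tax1bp1, Ulk2 and Vmp1) and in 12.4% of all. For Tax1bp1 the window with this element lies inside the gene. The AP-1 site TGACTCA and the FOXO site TGTTTAC, present in 5.20% and 3.65% of all promoters, were found for none of the 32. None of these letters stood in the windows of Gabarap and Gabarapl1. However, the Gabarap window (chr11:69991120-69991419) lies mostly inside the gene, whose annotated start is at 69991143, so little of the sequence before that start was searched.

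Further genes of the pathway were taken from lists for autophagosome-lysosome fusion, mTORC1 and its lysosomal anchor, AMPK, organelle-selective receptors and other regulators, and 57 of 58 were in the table. Between the phagocytic and non-phagocytic TG groups 1 of the 57 was DE and higher in TG Me-X04+ and none lower, and between TG Me-X04- and WT none was DE, beside 0 at an unadjusted p under 0.05 in limma. Between TG Me-X04+ and WT 1 was DE and higher and 4 were DE and lower. Over all genes 3.44% were DE and higher and 2.06% DE and lower between the TG groups. Between TG Me-X04+ and WT these shares were 8.25% and 6.02%. Between TG Me-X04- and WT 0.201% of all genes were DE and 5.18% had an unadjusted p under 0.05 in limma. In both comparisons with TG Me-X04+ 1 of 57 is below the share higher, and 4 of 57 is near the share lower against WT. None of the 14 fusion genes and none of the 10 organelle receptors was DE in a comparison. Their median log2FC between the TG groups were 0.04 and 0.29.

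The gene DE in both comparisons was Rragd, a Rag GTPase that helps to bring mTORC1, the kinase complex that restrains autophagy, to the lysosome. It ranged from -1.55 to -0.22 with a median of -1.10 in WT, was -0.06, 0.22, -0.91, -1.77 and -0.43 in TG Me-X04- replicates 1 to 5, and 3.00, 0.74, 0.41 and 1.15 in TG Me-X04+ replicates 1 to 4. All TG Me-X04+ libraries were above all others, with the highest value in replicate 1. The log2FC was 1.92 (SE 0.54, limma adjusted p = 0.0463) against TG Me-X04- and 2.28 (SE 0.50, adjusted p = 0.00482) against WT. The first call was kept in 3 of 16 fits with a library left out (without WT replicate 3, TG Me-X04- replicate 2 or TG Me-X04+ replicate 3). It was lost with the replicate number as a block, which also joins WT and TG libraries of different animals. The second call was kept in all 16 but, like the first, lost without both TG Me-X04+ libraries of set A and with set A alone. The log2FC against WT was at least 1.25 under all settings run.

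The 4 lower genes against WT were Rptor, the mTORC1 subunit that binds substrates, with a log2FC of -0.74 (limma adjusted p = 0.0268), Lamtor3 of the lysosomal anchor with -1.32 (0.0157), the AMPK subunit Prkab1 with -0.83 (0.0226) and Tfeb, a transcription factor of lysosomal genes, with -1.42 (0.0408). For Lamtor3 the TG Me-X04+ libraries (1.07, 1.46, 1.77 and 2.05) all lay below the WT libraries (2.28 to 3.98), and for the other 3 the groups overlapped. Rptor lost its call without WT replicate 7 or without TG Me-X04+ replicate 1, 2 or 3, Lamtor3 without TG Me-X04+ replicate 1 and Prkab1 without TG Me-X04+ replicate 2. Tfeb kept its call in 6 of the 16 such fits. With the replicate number as a block Rptor, Prkab1 and Tfeb lost theirs, but that block joins WT and TG libraries of different animals. Without both TG Me-X04+ libraries of set A none of the 4 was DE.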

How the data were processed

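RNA of sorted microglia was measured in 16 libraries, prepared with the Ovation RNA-Seq System V2, a kit that does not mark strand. Per the submitters' processing notes and the study's methods, the authors trimmed the reads (Trim Galore 0.4.4), aligned them to GRCm38 (STAR 2.5.4b), counted them on Gencode genes with featureCounts, filtered low genes and scaled libraries by TMM. The authors deposited log2 RPKM values for 17951 genes (12919 with a symbol), with gene lengths and the columns of their own comparisons (fold changes, mean expression, test scores and p-values), which were not used.

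The deposited log2 values were tested in R 4.3.3 with limma 3.58.1 (lmFit, eBayes with a variance trend, 3 groups in 1 fit, no covariate), two-sided, adjusted over all genes. The study's methods name a count test, which does not suit log2 values. Groups come from the labels. Whether replicates of a group came from separate preparations is given only by the numbers in the labels. Same-numbered TG libraries were taken as 1 animal, and their deviations from the group means correlated at 0.292, 0.325, 0.320 and 0.329. Numbers shared with WT mark other animals, although the replicate block run as an alternative gives them a common term.

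Reads per gene were recovered from the equal steps of the linear values (100% whole within 0.01, with a prior of 2 reads at the mean library size), and serve for depths and alternatives. Intervals are 95% confidence intervals from limma for the difference between group means, based on the variance between libraries. Gene positions, overlaps, shared 50-base stretches and coding ends come from GENCODE on GRCm38, a later release than that used for counting, with alignments by biopython 1.88. Figures were drawn with matplotlib 3.10.9. The test was tried on simulated data. Members and lists were chosen with earlier results of these data known. All members may be named. Full values are given for those DE in a comparison and, per role, the one with the largest absolute log2FC between the TG groups. Of the other lists, the DE genes are named. Atg7, Becn1, Map1lc3b and Wdfy3 are described further for their values. The closing part gives the alternatives. Leaving out both TG Me-X04+ libraries of set A and using only 1 set were added after the data were seen.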

Additional observations from a re-analysis of the deposited data

Results flagged for a closer look

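In each group of the 39 genes (117 gene and group combinations) the highest or lowest library was compared with the rest by Dixon's criterion, which flags about 1 in 20 groups by chance. It marked 10, all as log2 RPKM. WT replicate 3 stood apart for Atg13 (-0.18), Atg101 (-2.05), Atg16l2 (-0.67) and Atg4c (4.36), and WT replicate 2 for Sqstm1 (0.22). TG Me-X04- replicate 2 stood apart for Vmp1 (3.37). TG Me-X04+ replicate 2 stood apart for Atg2b (3.10), Atg12 (0.46) and Gabarapl2 (2.90), and TG Me-X04+ replicate 4 for Uvrag (3.68). Of these libraries, all but TG Me-X04+ replicate 4 belong to set A.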

How the results depend on the processing

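The call of Gabarap between the TG groups depended on the processing, with the direction kept throughout, and the cause was not tested. The count of DE autophagy genes in that comparison, 1 as reported, was 0 without the variance trend (Gabarap adjusted p 0.0531), with quantile normalization (log2FC 0.55, 0.342), with scaling by the reads outside mitochondrial genes (0.77, 0.119), with only the 2 groups compared (0.0510), with the replicate number as a block over all groups (1.09, 0.0556), without both TG Me-X04+ libraries of set A (1.19, 0.0692) and with set A alone (0.88, 0.317), and 2 with set B alone (Gabarap and Map1lc3b). With a library left out it was 0 to 1, and without TG Me-X04+ replicate 4 the DE gene was Uvrag. Limma voom on the recovered reads gave Gabarap an adjusted p of 0.0138. Against WT the calls of Gabarap and Gabarapl1 held under all 15 other planned settings and all 16 left-out libraries, where 2 to 4 genes were DE (4 without TG Me-X04+ replicate 4, with Uvrag and Wipi2), and the block changed neither. Gabarapl1 lost that call without both TG Me-X04+ libraries of set A and with set B alone. No setting made an autophagy gene DE between TG Me-X04- and WT.

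The median log2FC between the TG groups, 0.04, was -0.24 with scaling outside mitochondrial reads (all genes -0.36), 0.16 with set B alone, and -0.0574 to 0.1221 with a library left out. With quantile normalization it was -0.05, the same as over all genes. It was -0.08 with set A alone (all genes -0.10), and -0.07 without both TG Me-X04+ libraries of set A, where that of all genes was 0.02. Without both TG Me-X04+ libraries of set A, Atg9a turned to 0.0416 and Optn to -0.0931, and the cause was not tested.

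For the other lists, 1 gene as reported, the count was 2 with library weights (arrayWeights) and with scaling outside mitochondrial reads, 4 with a term for the sets, 5 with set B alone, 0 with median centring, quantile normalization, either filter, only the 2 groups, the replicate block, set A alone or without both TG Me-X04+ libraries of set A, and 0 to 1 with a library left out. The settings other than the left-out libraries that kept the call of Rragd numbered 9 of 16.

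Over the whole table, the 986 genes DE between the TG groups became 655 at a mean log2 RPKM of at least 2, 470 with only these groups, 2142 with a term for the sets, 493 without both TG Me-X04+ libraries of set A, 2262 in set B, 85 in set A and 552 to 1100 with a library left out. The 36 between TG Me-X04- and WT became 175 with library weights, 13 on log2(RPKM + 1), 19 and 16 at a mean of at least 0 and 2, 18 with the block, 101 with the set term, 19 in set B, 0 in set A and 19 to 35 with a library left out. The 2562 between TG Me-X04+ and WT became 1419 at a mean of at least 2, 3919 with the set term, 1652 in set A and 2124 to 2605 with a library left out. Genes with few reads in some libraries, such as Atg101, Atg9a, Atg16l2, Map1lc3a and Optn, are limited by depth.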
